A study of Mus musculus with 2 samples.

Results

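The 4 Hox clusters of the mouse were examined for R-loop peaks in primary neural stem and progenitor cells (NSPCs). Members were the protein-coding genes of the GENCODE M1 annotation of mm9 whose symbol is Hoxa, Hoxb, Hoxc or Hoxd followed by a number, and the peaks that overlapped them or the span between the outermost genes of a cluster. This gave 39 genes, 11 in Hoxa, 10 in Hoxb, 9 in Hoxc and 9 in Hoxd. They account for 40 of the 22367 protein-coding gene models on the autosomes, X and Y, since Hoxa3 is listed under 2 identifiers. Of the 22132 peaks in the list, none overlapped a Hox gene and 1 lay within a cluster span.

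Hox genes encode homeodomain transcription factors that give cells their position along the head-to-tail axis. They lie in the order in which they are used along the body, with low-numbered genes active toward the hindbrain and high-numbered genes toward the tail, and genes of the same number in different clusters form a paralog group. They are known to be expressed in hindbrain and spinal cord and to be kept silent by Polycomb group proteins in forebrain. An R-loop forms when nascent RNA pairs with the template strand and leaves the other strand unpaired, and R-loops are known to be favored at CpG-rich promoters and where the unpaired strand is rich in G.

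The NSPCs came from the frontal brain of C57BL/6 mice at postnatal day 7 and, per the methods of the study, were grown for 48 h with 0.5 μM aphidicolin, which inhibits DNA polymerases and slows replication. RNA:DNA hybrids were recovered from restriction-digested DNA with the S9.6 antibody and sequenced (DRIP-seq), with repeat reactions pooled for each library, and 1 list of peak positions was analyzed, with no signal, score or read count. The list has no replicates and its depth is unknown, so no error or test could be given for any value below, and a gene without a peak is a gene at which no peak was called. No sample without aphidicolin and no other brain region was analyzed here.

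None of the 39 Hox genes overlapped a peak, and none had its start, the outermost 5′ base of the gene model, inside one. Among all protein-coding gene models, 39.6% overlapped a peak and 14.9% had their start in a peak. The Hox genes are short, with a median length of 4.08 kb and a range of 1.85 to 50.0 kb, and a short gene offers fewer bases for an overlap. Of the 14397 gene models within that range of length, 40.1% overlapped a peak. That range reaches up to Hoxa3, far above most Hox genes. Of the 3452 gene models of 3.17 to 8.08 kb, the middle 50% of Hox lengths, 31.8% overlapped a peak and 17.8% had their start in a peak.

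Since no Hox gene overlapped a peak, the count was 0 in every paralog group, which is no separate result. Hoxb1 and Hoxd1, from the hindbrain end of their clusters, had no peak, and the 4 genes of paralog group 13, which act at the tail and in distal limb (Hoxa13, Hoxb13, Hoxc13 and Hoxd13), had none either. The Hoxa span, chr6:52105366-52210874 (mm9), is 106 kb long and held 0 peaks. The Hoxc span, chr15:102751534-102867274, is 116 kb long and held 0 peaks. The Hoxd span, chr2:74506367-74603200, is 96.8 kb long and held 0 peaks. The Hoxb span, chr11:96055630-96229570, is the longest at 174 kb, because Hoxb13 stands apart from the other 9 genes, and it held 1 peak that covered 0.21% of its bases.

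That peak, at chr11:96092606-96092971, was 366 bp long, compared to a median of 1.32 kb over all peaks. It was intergenic in the annotation, 33.8 kb past the end of Hoxb13 and 39.8 kb before Hoxb9, the next Hox gene. The nearest annotated gene was the pseudogene Gm11539 at 17.0 kb. The last 300 bases of the peak are printed because they hold its CA dinucleotide repeats, which are broken by other bases. Capitals mark perfect tandem repeats of at least 12 bp with a unit of at most 6 bp, which cover 24.0% of the printed bases, on the + strand.
Peak between Hoxb13 and Hoxb9, chr11:96092672-96092971: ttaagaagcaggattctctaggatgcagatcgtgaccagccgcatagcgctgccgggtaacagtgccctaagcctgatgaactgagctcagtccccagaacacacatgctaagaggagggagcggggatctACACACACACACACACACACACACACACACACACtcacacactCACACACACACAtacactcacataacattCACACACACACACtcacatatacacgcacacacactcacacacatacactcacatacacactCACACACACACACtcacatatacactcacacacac
In the whole peak, 41.4% of dinucleotide steps were CA or AC. Taking for each peak the strand with more of them, the median over all peaks was 14.6%, and 7.53% of all peaks reached the value of this one. Its GC content was 50.0%, near the 48.7% median of all peaks. The peak held no site of the 5 restriction enzymes used before DRIP, as did 76.1% of all peaks under 1 kb.

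The peaks that bounded the Hoxa and Hoxd clusters were also short. Each had a larger share of bases in perfect tandem repeats of at least 20 bp than the Hoxb peak, which had 9.29%. On the low-numbered side of Hoxa, at chr6:52029984-52030871, an intergenic peak of 888 bp had 30.5% of its bases in perfect tandem repeats of at least 20 bp. After Hoxa13, at chr6:52296121-52296587, an intergenic peak of 467 bp had 28.9%. Before Hoxd13, at chr2:74399955-74400769, a peak of 815 bp in an intron of Lnp had 25.5%. After Hoxd1, at chr2:74628584-74629208, an intergenic peak of 625 bp had 12.8%. The median over all peaks was 0.572%, and 12.8% of all peaks, or 26.0% of those under 1 kb, had at least 10% of their bases in such repeats. The 120 bases of each peak with the most repeat are shown on the + strand, marked as above, so that the units can be read.
Low-numbered side of Hoxa, chr6:52030055-52030174: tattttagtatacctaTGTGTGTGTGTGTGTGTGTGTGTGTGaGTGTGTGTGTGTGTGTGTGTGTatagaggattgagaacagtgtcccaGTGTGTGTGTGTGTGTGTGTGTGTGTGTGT
After Hoxa13, chr6:52296198-52296317: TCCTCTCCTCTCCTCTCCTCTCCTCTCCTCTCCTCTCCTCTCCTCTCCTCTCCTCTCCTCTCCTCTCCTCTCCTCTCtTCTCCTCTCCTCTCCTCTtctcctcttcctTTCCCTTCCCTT
Before Hoxd13, chr2:74399988-74400107: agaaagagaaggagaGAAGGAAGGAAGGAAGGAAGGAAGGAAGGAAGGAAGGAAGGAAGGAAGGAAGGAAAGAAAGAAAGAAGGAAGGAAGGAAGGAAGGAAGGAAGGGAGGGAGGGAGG
After Hoxd1, chr2:74628852-74628971: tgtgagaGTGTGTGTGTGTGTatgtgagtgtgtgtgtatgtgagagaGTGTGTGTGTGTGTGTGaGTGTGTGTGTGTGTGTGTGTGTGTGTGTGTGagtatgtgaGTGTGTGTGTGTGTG
The peaks on the low-numbered side of Hoxa and after Hoxd1 were built on TG repeats. In the peak after Hoxa13, 85.4% of bases on the + strand were pyrimidines, and 2.39% of all peaks had as large a share of pyrimidines or of purines. The printed stretch of the peak in Lnp consists of purines.

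The peaks that bounded Hoxb and Hoxc lay in genes with other functions, and 3 of these 4 were longer than the median peak. On the Hoxb13 side, a peak of 3.12 kb covered the start of Atp5g1, which encodes a subunit of mitochondrial ATP synthase. On the Hoxb1 side, a peak of 396 bp lay in an intron of Skap1, which encodes an adaptor protein of T cells. On the Hoxc13 side, a peak of 3.03 kb lay over exons of Calcoco1, and on the Hoxc4 side, a peak of 2.29 kb lay over exons of Smug1, which encodes a uracil-DNA glycosylase of base excision repair. In the Atp5g1 and Calcoco1 peaks, 0.0% of bases were in perfect tandem repeats of at least 20 bp, and in the Smug1 peak 1.27%. The Skap1 peak was short like those beside Hoxa and Hoxd, but its 5.05% of bases in such repeats was below each of theirs. Of all peaks under 1 kb, 39.4% had at least 5%. On one or the other strand, 73.2% of its bases were pyrimidines, and 6.85% of all peaks had as large a share of pyrimidines or of purines.

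**Figure D1:**
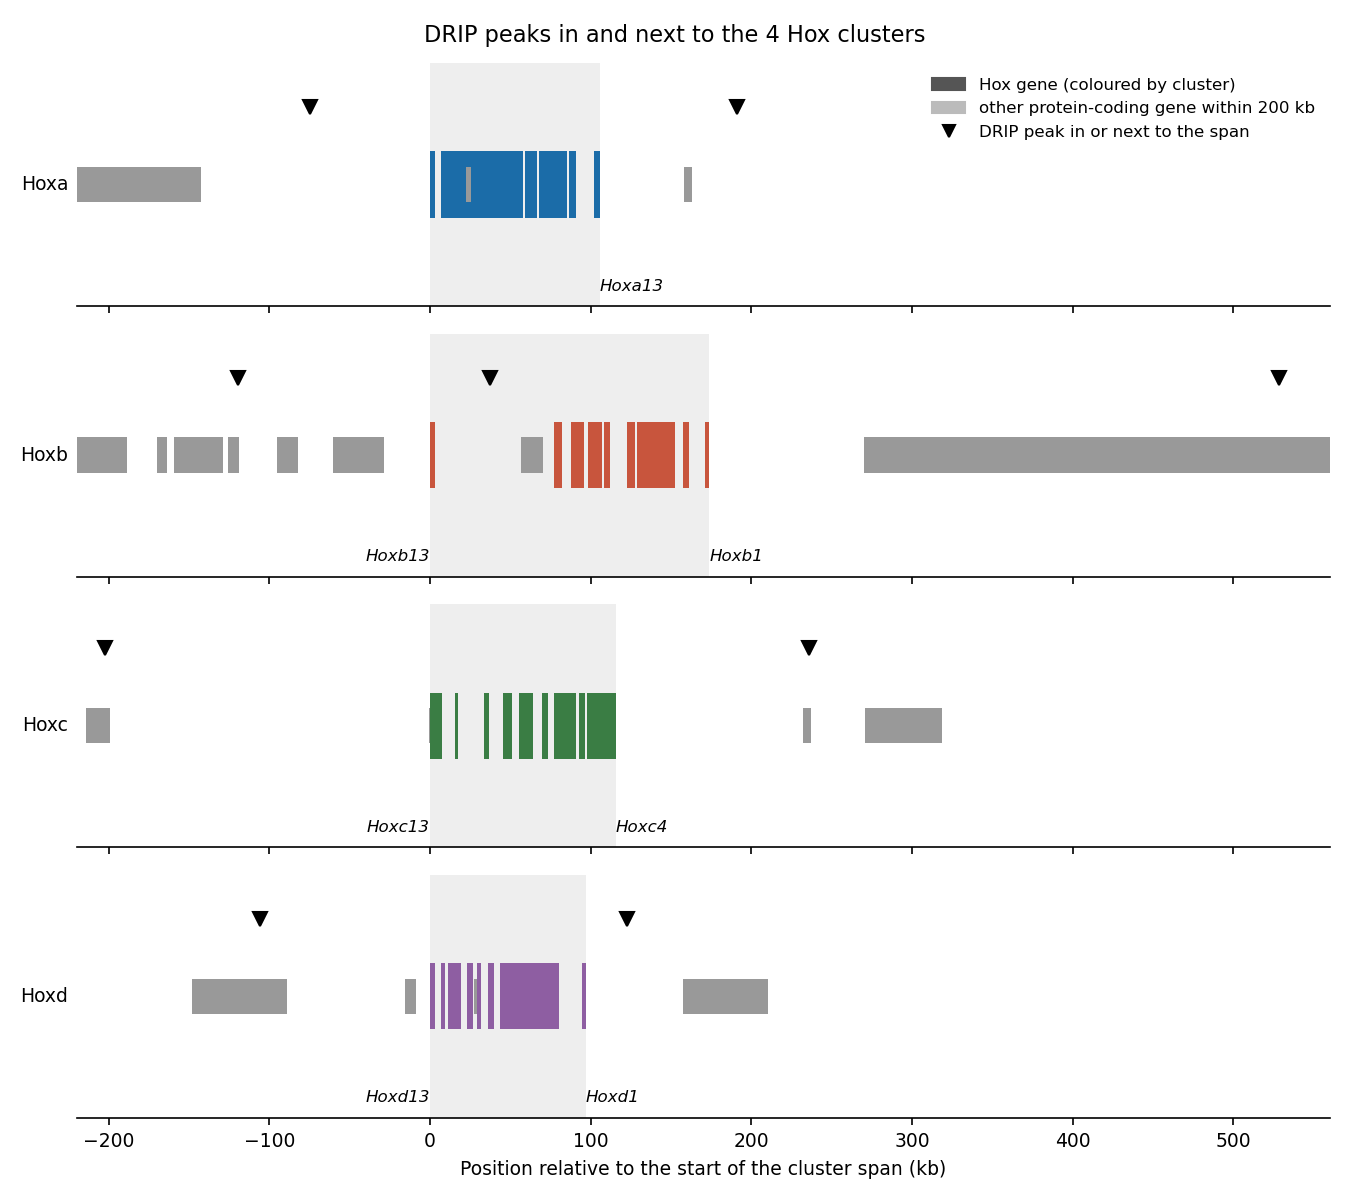
Map of the 4 clusters, with position in kb from the start of each span (grey shading) on the x axis. Colored blocks are Hox genes, grey blocks the other protein-coding genes within 200 kb of the span, and triangles the peaks inside the span and the nearest peak on each side. Peaks and genes farther out are not drawn. The only triangle within a shaded span is the 366 bp peak between Hoxb13 and Hoxb9.

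CA repeats as such were common in the clusters without a peak. The 4 spans held 64 perfect CA or TG arrays of at least 20 bp, 10 in Hoxa, 25 in Hoxb, 18 in Hoxc and 11 in Hoxd, and 1 of them, or 1.56%, lay in a peak. In the whole genome, 10284 of 272983 such arrays, or 3.77%, lay in a peak. Both shares were low, and a single array in a peak does not set the clusters apart from the genome.

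Hox genes lay far from peaks as well as outside them. The median distance from a Hox gene model to the nearest peak was 101 kb, with a range of 25.4 to 217 kb. Among all 13509 protein-coding gene models without a peak the median was 51.7 kb, and 34 of the 39 Hox genes exceeded it. No Hox gene had a peak within 10 kb or within 25 kb, whereas 51.3% and 60.7% of all protein-coding gene models did. Within 50 kb, 4 Hox genes had a peak (Hoxd1, Hoxd3, Hoxb9 and Hoxb13) and 69.4% of all protein-coding gene models did. In addition, 20 of 39 Hox genes were more than 100 kb from a peak, as were 35.0% of all gene models without one. Genes of a cluster are neighbors and share their nearest peak, so these distances are not independent of each other.

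The order of the distances followed the place of each gene between the bounding peaks. In Hoxa, Hoxa6, in the middle of the cluster, was farthest at 125 kb, and Hoxa13, at the high-numbered end, was at 85.2 kb. In Hoxb, Hoxb13 was nearest at 33.8 kb and Hoxb1 farthest at 134 kb, and the nearest peak of all 10 genes was the CA-rich peak inside the span. In Hoxc, Hoxc4 was nearest at 119 kb and Hoxc12, a late gene of the posterior body, was farthest of all 39 at 217 kb. In Hoxd, Hoxd1 was nearest of all 39 at 25.4 kb and Hoxd12 was farthest in its cluster at 112 kb. Low-numbered genes were thus nearest in Hoxc and Hoxd and a high-numbered gene in Hoxb, with no order by paralog group common to the clusters.

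**Figure D2:**
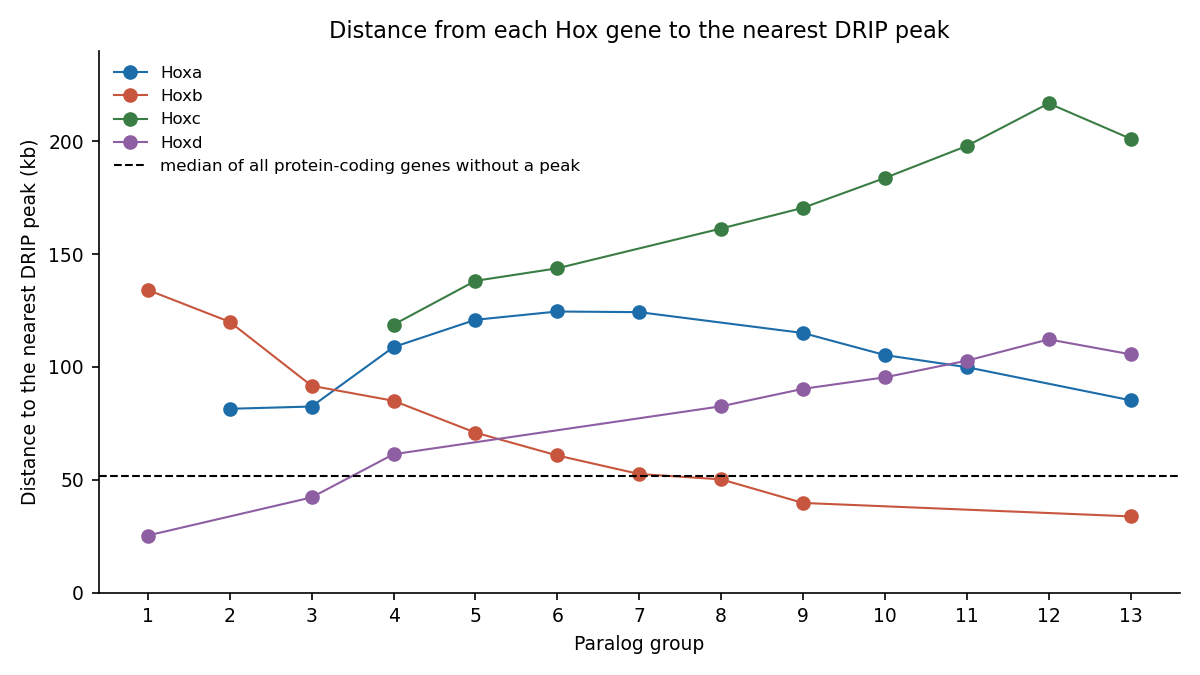
Distance in kb from each Hox gene to its nearest peak (y axis) by paralog group (x axis), 1 point for each gene shown, with lines joining the genes of a cluster. The dashed line is the median of protein-coding genes without a peak, 51.7 kb. Hoxc genes lay at 119 to 217 kb, and Hoxb genes were nearest to a peak at paralog group 13 and Hoxd genes at paralog group 1.

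The clusters thus sat in long peak-free intervals that held many genes. The interval around Hoxa was 265 kb long with 13 protein-coding genes, 11 of them Hox genes. The interval around Hoxc was 436 kb long with 10 genes, and the interval around Hoxd was 228 kb long with 11. Hoxb was divided by its peak into an interval of 155 kb with 3 genes, among them Hoxb13, and an interval of 491 kb with 10 genes, 9 of them Hox genes. Over all 22111 intervals between neighboring peaks the median was 23.6 kb, and 77.9% held no complete protein-coding gene. Length alone did not set the Hox intervals apart, since 9.98% of all intervals were as long as that of Hoxa, 16.5% and 5.09% as long as the pair at Hoxb, 5.76% as long as that of Hoxc and 11.6% as long as that of Hoxd. Few were as gene-rich, as 0.497% of all intervals held at least 13 genes, 0.66% at least 11 and 0.755% at least 10.

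The Hox intervals also stood near the top of the gene-rich ones in base composition. Of the 202 intervals with at least 9 complete protein-coding genes, a limit set at the smallest number of Hox genes in a cluster, the mean GC content within 1 kb of the gene starts had a median of 44.7%. It was 55.4% at Hoxc, 55.0% at Hoxd, 54.9% at Hoxa and 51.8% at the larger Hoxb interval, which ranked 9, 10, 11 and 18 of 202. For the ratio of observed to expected CpG the median was 0.2. The value was 0.62 at Hoxa, 0.6 at Hoxd, 0.54 at Hoxc and 0.44 at Hoxb, which ranked 3, 5, 10 and 21. Most gene-rich stretches without a peak were therefore poorer in GC and CpG than the Hox clusters.

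**Figure D3:**
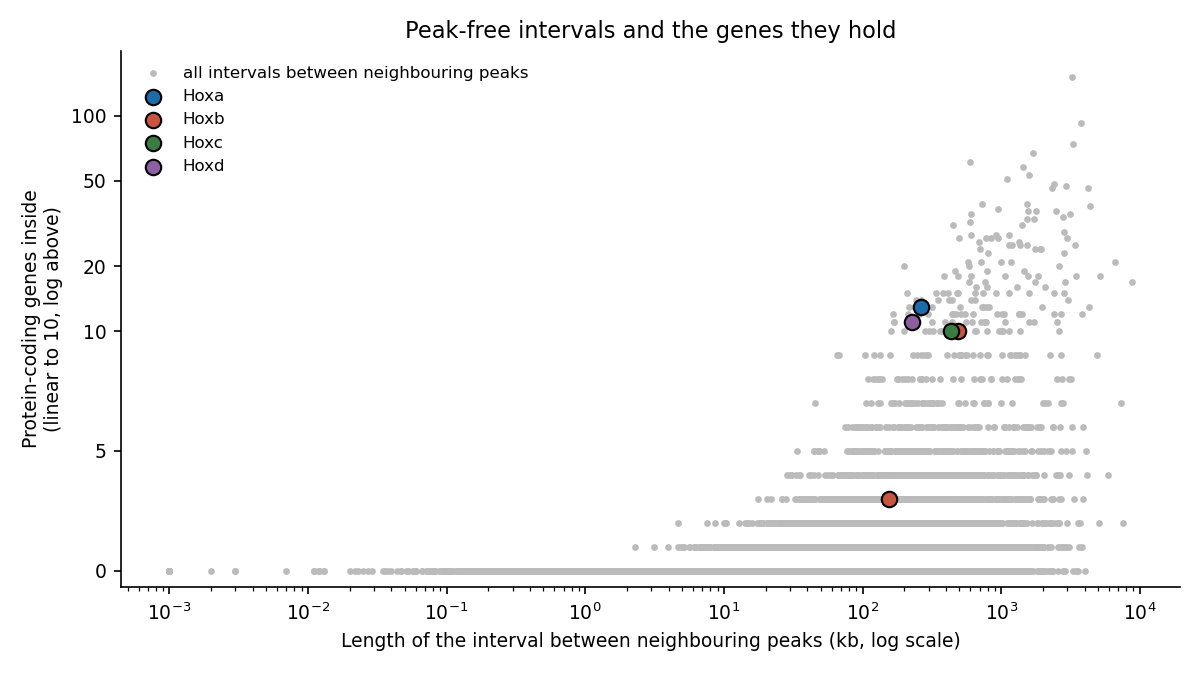
Length of each interval between neighboring peaks in kb (x axis, log scale) against the complete protein-coding genes inside it (y axis, linear to 10 and log above), with 1 point per interval. Large colored points are the 5 intervals that touch a Hox span. The interval with Hoxb13 holds 3 genes and the others 10 to 13.

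Windows of the length of each span, laid end to end along the genome, gave the same comparison for peaks in place of intervals. Of windows as long as the Hoxa span, 38.5% held a peak. The shares were 49.4% for the length of Hoxb, 40.5% for Hoxc and 36.9% for Hoxd. By length alone, a span without a peak was therefore the more frequent case for Hoxa, Hoxc and Hoxd. Of the windows at least as GC-rich as the span itself, 84.3% held a peak for Hoxa, 93.3% for Hoxb, 86.0% for Hoxc and 82.9% for Hoxd. Of the windows with at least as many protein-coding starts as the span, 64.3% held a peak for Hoxa, where only 14 windows qualified, 84.3% for Hoxb, 82.0% for Hoxc and 77.8% for Hoxd. Against windows at least as rich in GC or in gene starts, the 0 peaks of Hoxa, Hoxc and Hoxd were the less frequent outcome. Hoxb held a single peak. These sets have no upper limit and include richer windows, so they are not matched to the spans.

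In GC content the clusters were close to the median peak, at 48.7%, while few regions of their size had as much CpG. The GC content of the spans was 50.0% in Hoxa, 48.9% in Hoxb, 49.1% in Hoxc and 49.4% in Hoxd, against 41.8% in the genome. Between 3.14% and 5.06% of windows of the same length were as GC-rich. The ratio of observed to expected CpG was 0.48, 0.35, 0.36 and 0.46, against a median of 0.18 in windows of each length. Windows with as high a ratio numbered 2 for Hoxa, 8 for Hoxb, 11 for Hoxc and 2 for Hoxd, and 1, 5, 7 and 1 of them held a peak. The spans had no assembly gap, with 0 undetermined bases in each.

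Around the gene starts, Hox genes fell between the genes with and without a peak. GC content within 1 kb of the start had a median of 54.3% over Hox gene models, close to the 54.6% of genes with a peak and above the 48.3% of genes without. The CpG ratio had a median of 0.55, below the 0.62 of genes with a peak and above the 0.3 of genes without, and 35 of 39 Hox genes exceeded the latter. The highest GC content was at Hoxa13 with 67.2%, followed by Hoxd8 with 63.9% and Hoxd1 with 63.7%. The lowest was at Hoxb4 with 44.9%. Of the 10537 gene models within the Hox range of length, GC content and CpG ratio, 48.8% overlapped a peak and 20.4% had their start in a peak. Of the 501 within the middle 50% of Hox genes in all 3 measures, 51.9% overlapped a peak and 27.3% had their start in a peak.

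**Figure D4:**
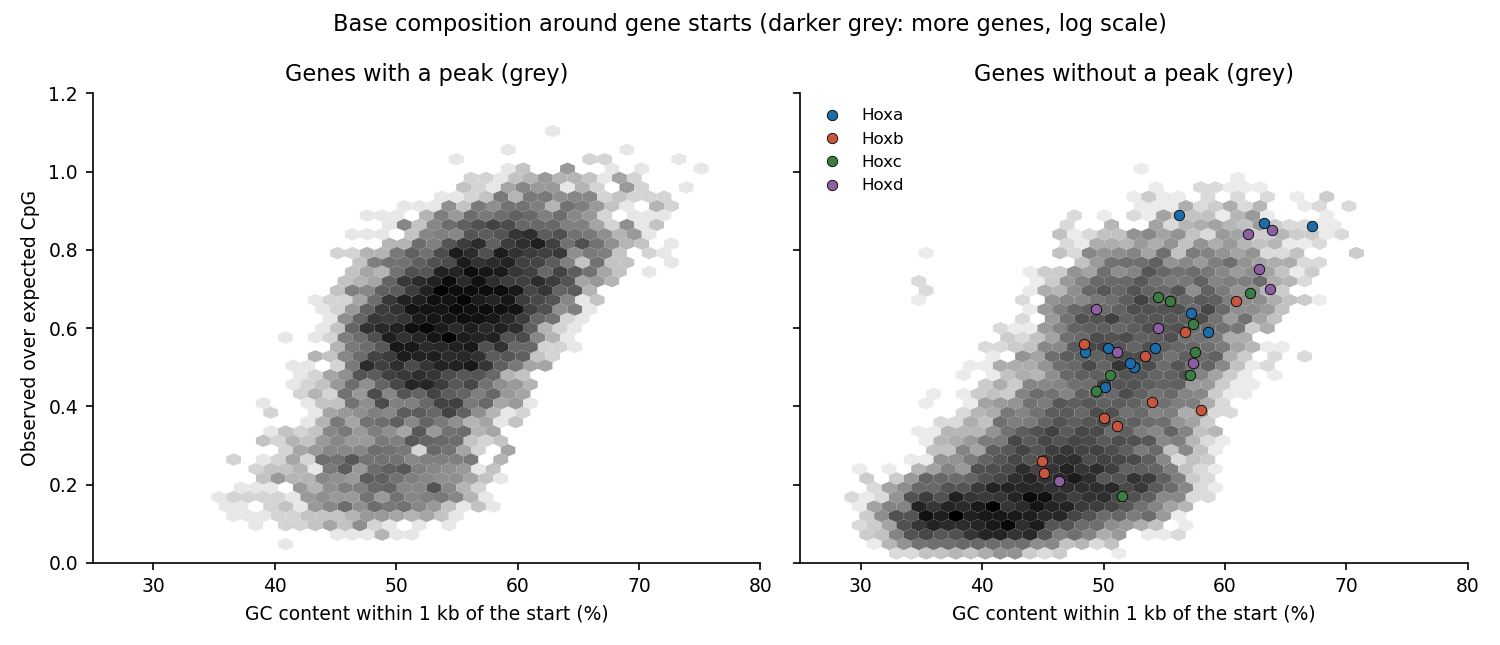
GC content within 1 kb of the gene start in percent (x axis) against the ratio of observed to expected CpG (y axis). Grey hexagons count protein-coding genes with a peak (left) and without a peak (right) on a log scale, darker for more genes, and colored points are the Hox genes. Hox genes spread from a CpG ratio of 0.17 at Hoxc4 to 0.89 at Hoxa5, around medians of 54.3% GC and 0.55.

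GC skew was the measure in which the median Hox gene lay below the genes with and without a peak alike. It was taken on the coding strand as G minus C over G plus C. Over the first 1 kb it had a median of 0.0 in Hox gene models and was above 0 in 18 of 39 genes, 5 of 11 in Hoxa, 5 of 10 in Hoxb, 4 of 9 in Hoxc and 4 of 9 in Hoxd. It was above 0 in 72.3% of gene models with a peak, with a median of 0.054, and in 75.0% of those with the start in a peak, with a median of 0.065. It was above 0 in 60.0% of gene models without a peak, with a median of 0.028. The Hox values ran from −0.164 at Hoxb5 to 0.185 at Hoxb3. Skew alone separated little, since within the Hox range of length, GC content and CpG ratio 22.0% of gene models with positive skew and 16.4% of the others had their start in a peak.

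The 100 bases before the start of Hoxa13 are set beside those of Pknox2, a gene for a partner of Hox proteins whose start lay in a peak, to show how the strands differ. Both are on the coding strand in mm9, and capitals mark CpG.
Hoxa13, no peak, chr6:52210875-52210974, − strand: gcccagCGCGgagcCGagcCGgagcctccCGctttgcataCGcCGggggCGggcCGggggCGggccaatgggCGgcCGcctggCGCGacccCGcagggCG
Pknox2, start in a peak, chr9:36954900-36954999, − strand: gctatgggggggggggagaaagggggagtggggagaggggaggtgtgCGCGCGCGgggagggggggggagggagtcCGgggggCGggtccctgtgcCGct
Hoxa13 had 16 CpG, 45 G and 38 C in this stretch. Pknox2 had 7 CpG, 64 G and 14 C. Both stretches were GC-rich, at 83.0% and 78.0%, but G and C were near balance before Hoxa13. Both lie upstream of the start, outside the first 1 kb over which GC skew was taken. Over that 1 kb, GC skew was −0.09 at Hoxa13 and 0.23 at Pknox2.

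Stretches rich in G on the Hox coding strand did occur within the clusters without a peak. In the Hoxa, Hoxc and Hoxd spans, the 60 bases outside annotated UTRs where G most outnumbered C are printed on the coding strand of the Hox genes of the cluster, with runs of at least 3 G in capitals.
Hoxa, intron of Hoxa3, chr6:52135065-52135124, − strand: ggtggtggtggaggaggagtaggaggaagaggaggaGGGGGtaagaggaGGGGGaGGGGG
Hoxc, intron of Gm20398, chr15:102824878-102824937, + strand: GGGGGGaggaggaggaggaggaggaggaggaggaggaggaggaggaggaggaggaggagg
Hoxd, intron of 1700109F18Rik, chr2:74546138-74546197, + strand: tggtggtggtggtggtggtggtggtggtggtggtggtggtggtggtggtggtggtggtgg
They held 40, 42 and 40 G and 0 C. The nearest peaks were 104, 161 and 82.4 kb away. The stretches in Hoxc and Hoxd are trinucleotide repeats and lie between Hox genes. The Hoxa stretch also lies in an intron of the non-coding gene 2700086A05Rik, which runs on the + strand. The non-coding gene 1700109F18Rik runs on the − strand. The G-rich strands printed for Hoxa and Hoxd are thus the template strands of these non-coding genes.

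Restriction sites were not denser in the clusters than elsewhere. The DNA had been cut with EcoRI, HindIII, BsrGI, SspI and XbaI before the hybrids were precipitated, and a hybrid is recovered on the fragment that carries it. The spans had 1.74 sites per kb in Hoxa, 1.31 in Hoxb, 1.48 in Hoxc and 1.32 in Hoxd, against 1.86 in the genome. Median fragments were 385, 554, 427 and 399 bp long, against 344 bp in the genome, and the longest fragment of the 4 spans was 4.61 kb, in Hoxd.

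The non-coding genes inside the spans had no peak either, which follows from the span counts and is no separate result. Hoxa, Hoxc and Hoxd held 0 peaks, and the 1 Hoxb peak was intergenic. The spans held 25 annotated genes that are not protein-coding, 8 in Hoxa, 7 in Hoxb, 4 in Hoxc and 6 in Hoxd, and 0 of 25 overlapped a peak, against 8.44% of all such genes. Among them were long transcripts such as 2700086A05Rik in Hoxa, of 39.9 kb, and Gm20398 in Hoxc, of 48.2 kb, and the antisense gene Hoxa11as. The clusters also encode 6 microRNA genes, of which Mir196a-1 in Hoxb was nearest to a peak at 33.5 kb and Mir196a-2 in Hoxc was farthest at 182 kb. Products of the Mir10 and Mir196 families are known to act on Hox transcripts. Mature sequences are printed from RefSeq (GRCm38.p6) with the seed, bases 2 to 8, in capitals, because the seeds tie genes of different clusters together.
miR-10a-5p, Hoxb: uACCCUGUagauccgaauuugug
miR-10b-5p, Hoxd: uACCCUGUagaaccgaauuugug
miR-196a-5p, Hoxb and Hoxc: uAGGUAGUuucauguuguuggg
miR-196b-5p, Hoxa: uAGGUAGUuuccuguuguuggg
miR-615-3p, Hoxc: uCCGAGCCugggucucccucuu
Products of Mir10a and Mir10b share a seed, as do those of the Mir196 genes. No gene of either family had a peak, which the span counts also fix.

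Beside Hoxb, Hoxc and Hoxd, other genes held peaks. Of 20 other protein-coding genes within 200 kb of the spans, 3 of which lie inside them (5730596B20Rik, Gm53 and Gm14396), 8 overlapped a peak and 2 had their start in a peak, or 40.0% and 10.0%, beside 39.6% and 14.9% of all protein-coding gene models. By cluster, 0 of 3 overlapped a peak at Hoxa, 4 of 9 at Hoxb, 2 of 4 at Hoxc and 2 of 4 at Hoxd. The 2 starts in a peak were those of Atp5g1 and of Ube2z, which encodes a ubiquitin-conjugating enzyme, both on the Hoxb13 side. The genes directly next to the clusters were mixed. Evx1, beyond Hoxa13, and Evx2, beyond Hoxd13, are homeobox genes linked to the clusters by descent and had no peak, with nearest peaks at 27.7 and 90.3 kb. Skap2 on the low-numbered side of Hoxa, Ttll6 on the Hoxb13 side and Gm17649 on the Hoxc13 side had no peak. Skap1, Smug1 and Mtx2, on the low-numbered side of Hoxb, Hoxc and Hoxd, each held 1 peak that did not reach the start. The Smug1 peak came close, ending at chr15:102988280 beside a gene start at chr15:102988383.

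In 2 lists of other homeobox genes of like length, Dlx and ParaHox, 0 of 6 genes each had a peak. Of all gene models in the Hox range of length, 40.1% did. This did not hold for all homeobox genes of that length, since the TALE genes Pbx2 and Pknox1 held peaks. The 6 Dlx genes, which pattern forebrain and face and lie as pairs, had 0 peaks, and their distance to a peak ran from 41.8 kb at Dlx5 to 79.7 kb at Dlx4. The 6 ParaHox genes (Gsx1, Gsx2, Pdx1, Cdx1, Cdx2 and Cdx4), close relatives of the Hox genes of which Cdx1, Cdx4 and Gsx2 lie apart from the others, also had 0 peaks, with distances from 14.2 kb at Cdx1 to 122 kb at Cdx2. These genes are short like the Hox genes, with medians of 5.22 and 7.26 kb.

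Peaks were called at some of the genes for partners and regulators of Hox proteins. The TALE homeodomain proteins Pbx, Meis and Pknox bind DNA together with Hox proteins, and 7 of 9 of their genes overlapped a peak. Among them, Meis2 held 6 peaks, Pknox2 held 5, Meis1 held 3, and Pbx2, Pbx3 and Pknox1 held 2 each. The start lay in a peak at 5 of the 9, among them Pbx2, Pbx3, Meis2 and Pknox2, or 55.6%, beside 14.9% of all protein-coding gene models. These genes are long, with a median of 139 kb, so their share with a peak anywhere cannot be set against that of the Hox genes. Within the Hox range of length there were 4, of which Pbx2 and Pknox1 held a peak and Meis3 and Pbx4 did not, beside 40.1% of all gene models in that range. Of the 6 retinoid receptor genes, whose products bind the retinoic acid that switches on Hox genes, Rara held 5 peaks and Rarg and Rxra 2 each, and only Rxra had its start in a peak. Rarb, Rxrb and Rxrg had none. These shares, 50.0% with a peak and 16.7% with the start in a peak, were close to the 39.6% and 14.9% of all protein-coding gene models.

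**Figure D5:**
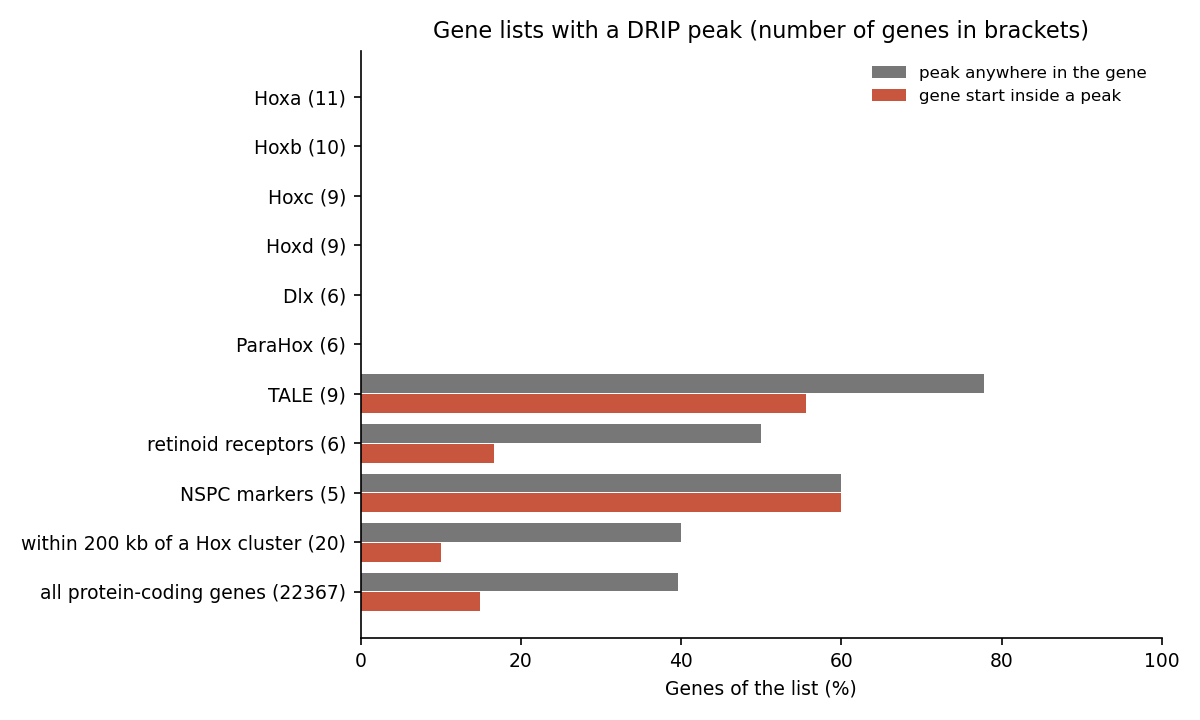
Percent of the genes in each list (x axis) that overlap a peak (grey) or have their start in a peak (red), with the number of genes in brackets. The Hox, Dlx and ParaHox lists are at 0, TALE genes at 77.8% and 55.6%, and all protein-coding genes at 39.6% and 14.9%. The lists differ in gene length and no test was made between them.

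Peaks were called at genes known to mark NSPCs. The starts of Sox2 and Nes, for a transcription factor and an intermediate filament of neural stem cells, and of Vim, for vimentin, lay in a peak, whereas Pax6 and Fabp7 had none. These 3 of 5, beside 39.6% of all protein-coding gene models with a peak and 14.9% with the start in a peak, show where peaks were called and do not measure expression. All 5 are within the range of length of the Hox genes. GC content around the start was 62.9% at Sox2, 60.3% at Nes and 55.5% at Vim. Of the genes without a peak, it was 44.8% at Fabp7 and 55.0% at Pax6, whose nearest peak was 65.8 kb away. Vim and Pax6 thus differed little in GC content.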

How the data were processed

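DRIP-seq peaks of primary NSPCs were analyzed from 1 deposited list. Per the study's methods and labels, the authors used Trim Galore 0.6.6 on the reads, aligned to mm9, discarded duplicates and used a Hidden Markov Model to define peaks. How replicates were combined is not given in the sources used here. The deposited values are the start and end of each peak in bp. Depth is unknown, and the input sample was not analyzed here.

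Peaks were compared with GENCODE M1 gene models (mm9) from an overlap of 1 bp. A span ran from the first to the last base of a cluster's Hox genes. Windows of span length had at most 5% undetermined bases. With 1 list, counts are given beside all genes, peaks or windows, without tests. Overlap and repeat searches were tested on simulated data. Python 3.11.15, numpy 2.4.6, pandas 2.3.3 and matplotlib 3.10.9 were used. The members and gene lists were chosen with earlier results of these data known. Named genes were each cluster's genes nearest to and farthest from a peak, list members with a peak at the start and the first gene beside each cluster. Other named genes were chosen after their values were seen. Some of the items these rules select are not reported here.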

Additional observations from a re-analysis of the deposited data

How the results depend on the processing

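The 0 Hox genes with a peak and the 0 with the start in a peak did not change in 15 of 16 alternatives, among them peaks of at least 1 kb, peak midpoints, merged peaks, coding limits, other transcripts and 2 kb flanks. The exception, chosen after seeing the data, was a flank of 50 kb, with which 4 Hox genes had a peak. The other 15 settings could not have changed the counts and lend them no support. Stricter limits on peaks or genes can only keep a count of 0. The nearest peak to any Hox gene lay 25.4 kb away, beyond the reach of merging and of flanks up to 25 kb. The single Hoxb peak depended on 2 limits. With peaks of at least 1 kb, or with a span from Hoxb9 to Hoxb1 (added after seeing the data), 0 peaks and 0% of the Hoxb span remained. Counts for Hoxa, Hoxc and Hoxd stayed at 0 with 10 kb added to each side, which the greater distances of their bounding peaks already fixed. With peaks of at least 1 kb, also added later, the peak-free interval at Hoxa grew from 265 to 1058 kb and that at Hoxd from 228 to 1623 kb, since the repeat-rich peaks beside them are shorter than 1 kb. Without replicates or signal, a weak hybrid at a Hox gene could not be told from none.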
